A study of Homo sapiens with 28 samples.

Results

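The 31 genes described here make cholesterol and fatty acids, govern that synthesis, act in sterol transport or are targets of an oxysterol receptor. Their RNA was measured in 4 human myeloma cell lines before and after treatment with arsenic. The genes were found by matching a list of 34 genes to the probe sets that the platform annotation gives to a single gene symbol. CYP51A1, FADS1 and FDFT1 are not analysed here. The 31 genes hold 75 of the 54675 probe sets and are 31 of 19775 genes with a probe set of their own. All 31 passed the filter on dim genes, and 25 were above the median signal of their array on each of the 28 arrays. By role they are 7 genes of the mevalonate steps, 9 of the squalene and sterol steps, 6 of SREBP control and sterol transport, 6 of fatty acid synthesis and 3 targets of the oxysterol receptor LXR.

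Total RNA was hybridised to 28 Affymetrix arrays, 7 from each of U266, MM.1s, KMS11 and 8226/S, which are established lines of multiple myeloma, a cancer of antibody-secreting plasma cells. Arsenic trioxide (ATO), an inorganic arsenical, was given at 2 µM to every line for 6, 24 or 48 h. Darinaparsin (DAR), an organic arsenical, was given for 6 or 24 h at doses that differed by line: U266 received 4 µM, 8226/S 2 µM, and both KMS11 and MM.1s 3 µM. Each line has 1 array per treatment and 2 untreated arrays, numbered control 1 and control 2 in the labels, and ATO is set here against control 2 and DAR against control 1 of the same line. The untreated arrays stand for 0 h, so treatment and time in culture cannot be told apart. A line is the replicate (n = 4 in each group), and each is 1 established line grown in serum-supplemented medium. The p-values of the treatment and control comparisons measure the spread left over all 28 arrays once baselines and mean treatment changes are fitted. They do not measure the spread of the 4 line changes of a comparison alone. In the treatment fit the times of a line share its baseline and count as separate arrays. A line that responds less at every time is therefore partly taken up by its baseline. Tests of differences between lines rest on other replicates, which are named with them. The labels do not say whether the arrays of a line came from separate cultures.

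Cholesterol and the isoprenoids are built from acetyl-CoA through mevalonate, farnesyl diphosphate, squalene and lanosterol. When membranes of the endoplasmic reticulum hold little sterol, the escort protein SCAP carries the membrane-bound factors SREBP, encoded by SREBF1 and SREBF2, to the Golgi, where they are cut and freed to switch on nearly all genes of the pathway. When sterol is plentiful, the INSIG proteins hold SCAP back and transcription falls. LXR, which senses oxysterols, switches on export genes such as ABCA1 and ABCG1 and the ubiquitin ligase gene MYLIP, and it also raises SREBF1. Plasma cells carry a large endoplasmic reticulum, and serum in the medium supplies lipoprotein cholesterol.

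The bases before the start of the genes are shown as background, and their part in any change was not tested. RefSeq windows of build GRCh38.p14, 250 bases long and ending at the base before the start, were found for 27 of the 31 genes. The next lines give 4 of them 5′ to 3′, with the sterol response element TCACNCCAC and the CCAAT box (CCAAT, or ATTGG when it lies on the other strand) in capitals. SREBF2 is shown as the 1 gene of the 27 with an exact match to TCACNCCAC in its window, and INSIG1, MSMO1 and FDPS as genes that fell under ATO. They were chosen after their motifs were seen.
SREBF2: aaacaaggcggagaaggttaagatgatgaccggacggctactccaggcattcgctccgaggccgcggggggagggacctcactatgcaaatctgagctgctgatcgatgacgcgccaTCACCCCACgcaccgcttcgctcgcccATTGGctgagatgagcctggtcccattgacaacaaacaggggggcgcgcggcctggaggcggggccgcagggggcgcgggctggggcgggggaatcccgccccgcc
INSIG1: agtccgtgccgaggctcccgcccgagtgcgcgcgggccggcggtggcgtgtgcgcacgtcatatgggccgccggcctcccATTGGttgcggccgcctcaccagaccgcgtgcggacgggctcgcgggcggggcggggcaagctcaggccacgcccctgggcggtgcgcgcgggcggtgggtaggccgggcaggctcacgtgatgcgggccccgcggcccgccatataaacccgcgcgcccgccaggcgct
MSMO1: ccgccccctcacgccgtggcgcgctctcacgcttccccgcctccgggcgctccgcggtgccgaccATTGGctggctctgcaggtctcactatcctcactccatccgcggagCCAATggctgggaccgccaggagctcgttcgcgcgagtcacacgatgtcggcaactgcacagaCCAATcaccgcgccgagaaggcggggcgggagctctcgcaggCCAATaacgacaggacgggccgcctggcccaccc
FDPS: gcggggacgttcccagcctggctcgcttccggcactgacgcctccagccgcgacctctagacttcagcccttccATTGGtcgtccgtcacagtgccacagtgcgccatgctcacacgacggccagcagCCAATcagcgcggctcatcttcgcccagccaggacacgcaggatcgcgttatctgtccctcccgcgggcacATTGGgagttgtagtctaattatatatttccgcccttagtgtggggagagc

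These windows lie on the plus strand at chr22:41832855-41833104 for SREBF2, chr7:155297628-155297877 for INSIG1, chr4:165327419-165327668 for MSMO1 and chr1:155308616-155308865 for FDPS. Both strands were searched with no mismatch. In SREBF2 the sterol response element starts 133 bases before the gene, and a CCAAT box on the other strand starts 106 bases before it. TCACNCCAC was found in 297 of 27305 genes with a window (1.09%), and in 1 of the 27 (3.7%). The CCAAT box was found in 20 of the 27 (74.1%), against 37% of the 27305 genes with a window. It was in each of the 8 squalene and sterol genes with a window. It was in 5 of 6 mevalonate genes, 3 of 6 SREBP control genes, 3 of 5 fatty acid genes and 1 of 2 LXR targets. MSMO1 holds 4 CCAAT boxes, FDPS 3 and INSIG1 1. Matches of different motifs were counted on their own and may share letters. The GC box GGGCGG was in 26 of the 27 (96.3%), all but NSDHL, against 46.2% of the 27305. Those 27305 are not limited to the 15437 genes bright enough to be tested here. Whether the shares differ with expression was not tested. A match of letters does not show that a factor binds there, and 8 of the 27 genes have several windows, of which any match was counted.

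Of 8 plasma cell markers 5, SDC1, TNFRSF17, IRF4, PRDM1 and XBP1, were above the array median on each of the 28 arrays, while MZB1 was on 26, SLAMF7 on 23 and CD38 on 17. None of 21 markers of other cell types was above it on all 28 arrays and 5 were on none, but the B cell marker CD22 was on 27, the fibroblast marker COL1A1 on 22 and the epithelial marker EPCAM on 14. The control 2 and ATO arrays differ from the control 1 and DAR arrays. Their median signal was 111 to 147 against 65.5 to 109, and the ratio of the 3′ to the 5′ probe set of ACTB, a measure of RNA or target length, was 1.03 to 1.27 against 1.28 to 2.19. The ratio also differed inside the control 1 and DAR set. It was 1.37 to 1.90 in control 1, 1.28 to 1.52 at 6 h of DAR, lower in every line, and 1.69 to 2.19 at 24 h. Every treated array is set against the control of its own set, which does not remove differences within a set. The part of these differences in any result was not tested.

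In the untreated cells themselves most of the 31 genes were higher in control 2 than in control 1. The median difference over the 31 genes was 0.645 on the log2 scale, against 0.215 over all genes tested. limma called 17 of the 31 higher and 1, PMVK, lower, where 28.2% of all genes were called higher and 15.5% lower. FASN, the fatty acid synthase gene, differed most, with signals of 439.8 in U266, 845 in MM.1s, 1579.7 in KMS11 and 1558 in 8226/S in control 1 against 2766, 6516, 10163 and 10738 in control 2, in the same order of lines. The controls did not overlap, and the difference was 2.73 ± 0.30 (adjusted p = 1.83e-07, limma). FADS2 was higher by 2.72 ± 0.48, SREBF1 by 1.86 ± 0.38 and SREBF2 by 1.61 ± 0.24, and these 4 calls held with each array centred on its median. Values after ± are standard errors of the limma fit, and a log2 difference of 1 is a doubling of signal plus an offset of 29. In control 1 FADS2 was at 25.3 in MM.1s, under that offset, and SREBF1 at 58.3 in U266, so the sizes of their differences depend on the offset. Centring each array on its median moved the all-gene difference between the controls from 0.215 to -0.313 and that of the 31 genes to 0.117, with 7 called higher and 6 lower. Measured from the all-gene median, the 31 genes were 0.43 higher under both scalings. This holds by arithmetic, since centring shifts all genes of an array alike, and so tells nothing about the scaling. With quantile normalization the 31 genes stood 0.694 above the all-gene median, with 15 called higher and 0 lower. Whether culture, labelling or array processing differed between the controls was not tested. The plot of levels relative to control 1 shows the ATO arrays read from that control.

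**Figure D1:**
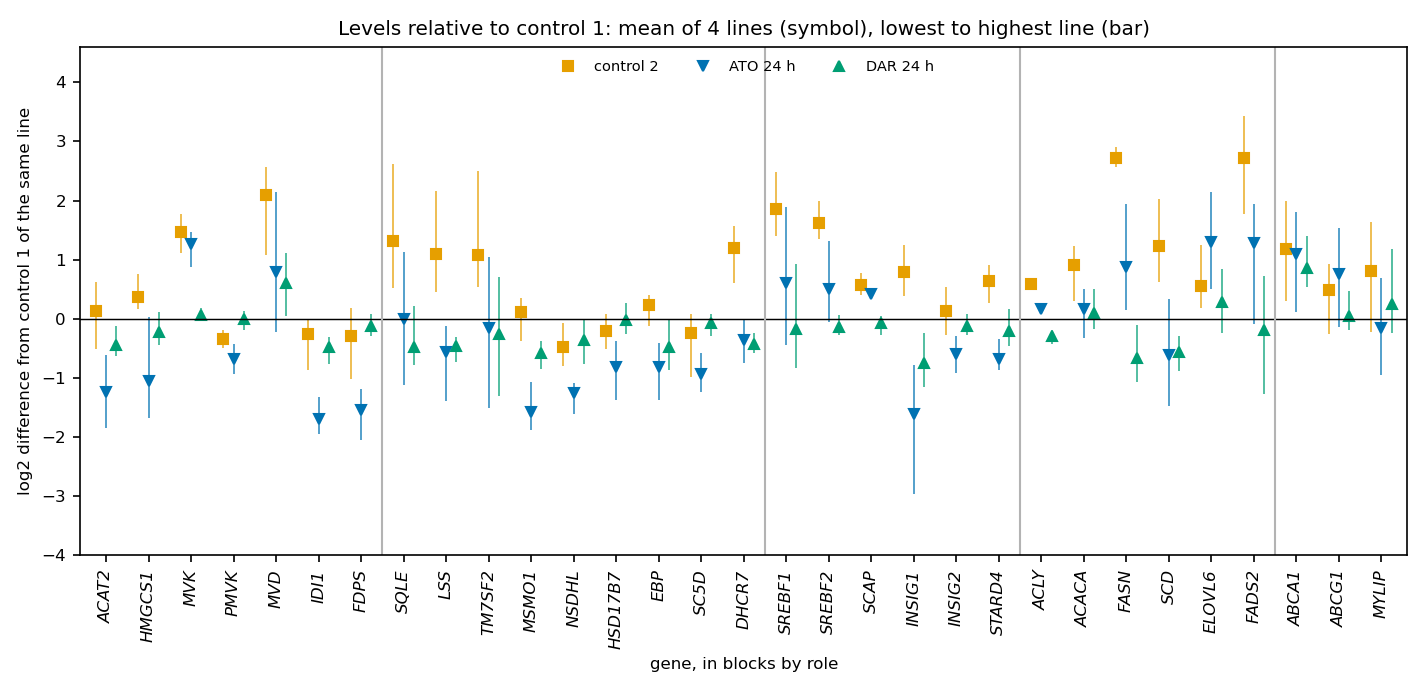
Log2 difference of control 2, ATO at 24 h and DAR at 24 h from control 1 of the same line, for each of the 31 genes in blocks by role; symbols are means of 4 lines and bars run from the lowest to the highest line. Control 2 lies above 0 in all 4 lines for 19 genes (35.1% of all genes tested do), and ATO at 24 h lies below 0 in all 4 lines for 14 (18.9% of all genes tested do).

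After ATO the genes of sterol and fatty acid synthesis were lower than in control 2 in most lines. At 6 h 13 of the 31 fell and none rose, against 2.64% of the 15437 genes tested called lower and 3.78% called higher. At 24 h 23 fell and none rose, where 2.27% of all genes were called lower and 2.73% higher. At 48 h 21 fell and 1, ELOVL6, rose, with 5.38% of all genes called lower and 6.35% higher. The median change of the 31 genes was -0.59, -1.24 and -0.934 at the 3 times, and that of all genes 2.83e-05, 0.0243 and 0.056. Lower values in 4 of 4 lines were seen for 22, 27 and 18 of the 31, where 13.8%, 11.4% and 11% of all genes had them. HMGCS1, IDI1, SQLE, LSS, MSMO1, INSIG1, STARD4, FASN, SCD and MYLIP fell at each of the 3 times, a total of 10. A further 11 fell at 2 times and 5 at 1, and MVK, SCAP, ELOVL6, ABCA1 and ABCG1 at none. The 3 comparisons share the control 2 arrays and are not independent of each other. The summed signal of 8 plasma cell markers was lower too, at 36963 to 97580 in control 2 and 22730.2 to 44366 at 24 h of ATO, and its part in the result was not tested. Each array is a bulk sample of 1 line, so a fall in every cell and a fall in part of the cells cannot be told apart.

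Calls were made with limma at an adjusted p under 0.05, and they depend on the lines and controls used. Without MM.1s the calls numbered 8, 13 and 15 at the 3 times, and without KMS11 8, 13 and 13. Without U266 there were 12, 14 and 17, and without 8226/S 16, 20 and 21. Of the called genes 6, 12 and 13 stayed called whichever line was left out. Against the 8 controls together, with a term for line, the medians were -0.407, -0.666 and -0.578, where those of all genes were 0.142, 0.16 and 0.198, and 5 of 13, 13 of 23 and 15 of 22 calls held. In that fit 9, 14 and 16 of the 31 were called lower, where 3.97%, 3.32% and 7.32% of all genes were, and 1 was called higher at each time, where 4.15%, 4.09% and 9.35% were. It sets the ATO arrays against control 1 as well, so the difference between the controls enters each value given against the 8 controls, here and below. Whether a call held in that fit follows in part from that difference and is no separate test of ATO.

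**Figure D2:**
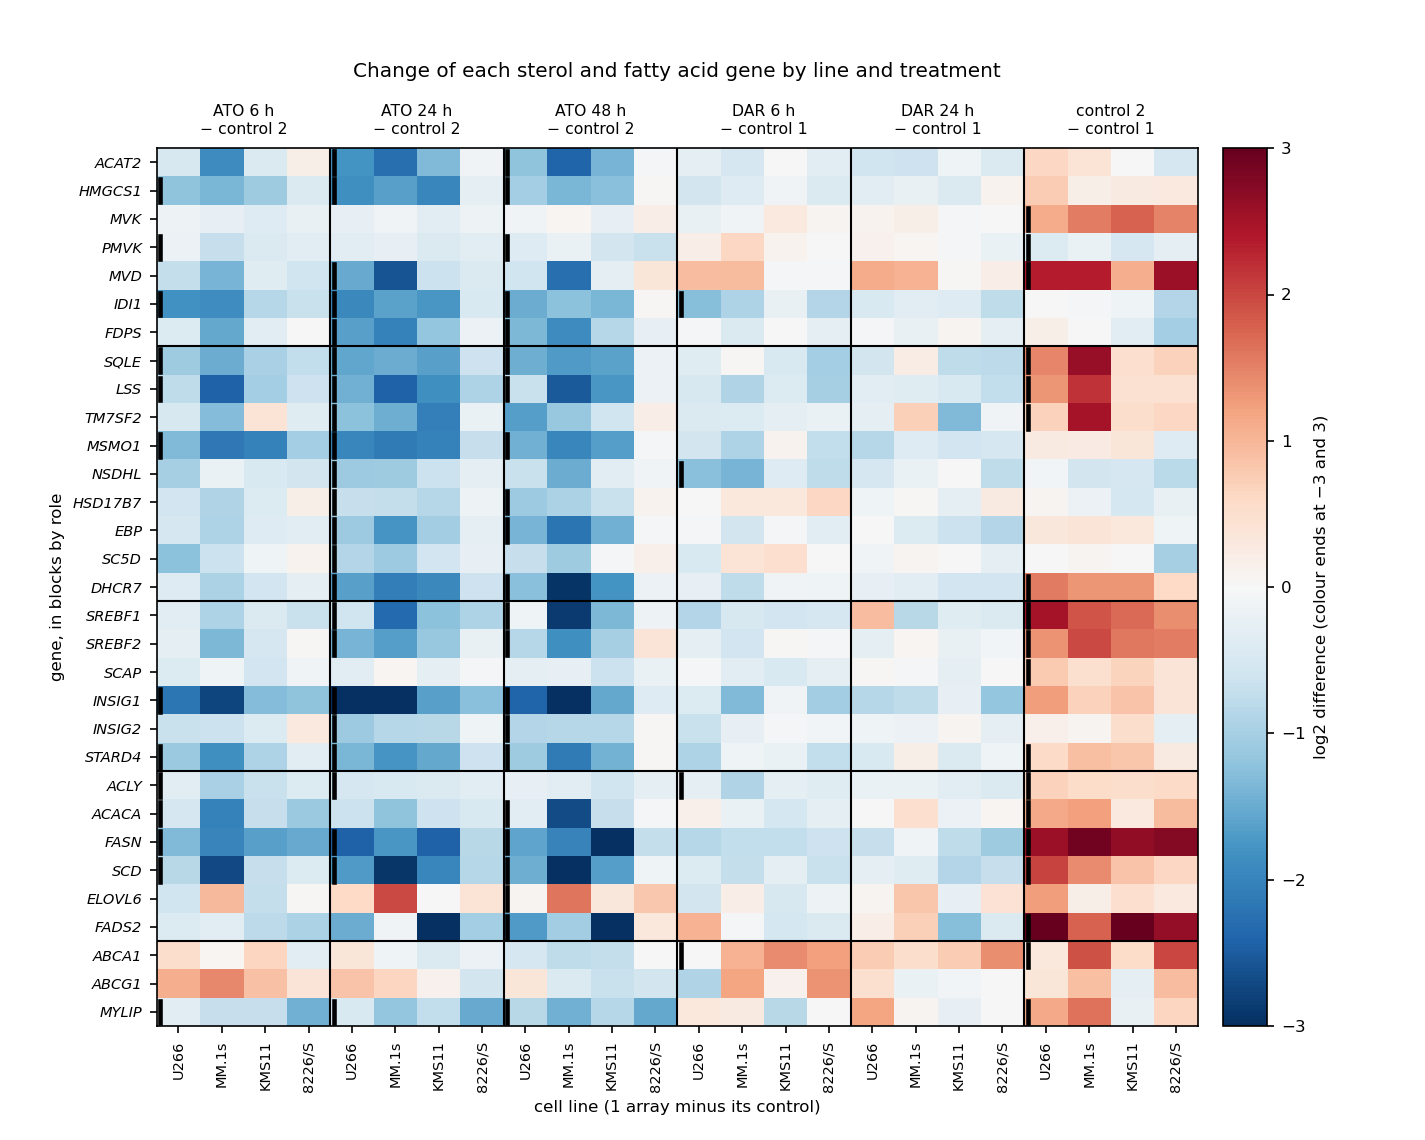
Log2 difference of each treated array from the control of its line, for 31 genes (rows, in blocks by role) and 4 lines in each of 6 comparisons (columns); colour ends at -3 and 3, and a black bar at the left of a comparison marks genes called at an adjusted p under 0.05. The ATO blocks are mostly blue with the palest cells in 8226/S, the DAR blocks are pale, and the last block is mostly red.

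The mevalonate genes turn acetyl-CoA into the isoprenoid building blocks. Of the 7 measured, 3 fell at 6 h of ATO, 5 at 24 h and 5 at 48 h. HMGCS1, which encodes HMG-CoA synthase, had signals of 2034 in U266, 1509.7 in MM.1s, 2039.7 in KMS11 and 1677 in 8226/S in control 2. After 24 h of ATO they were 549.5, 468, 504 and 1388 in the same lines. The groups did not overlap, and 8226/S stood closest to its control. HMGCS1 changed by -1.01 ± 0.20, -1.42 ± 0.20 and -0.90 ± 0.20 at 6, 24 and 48 h (adjusted p = 0.00243, 9.21e-05 and 0.00381, limma), which is 2.68-fold lower at 24 h. The standard error of a gene is the same at each time because the fit pools the spread of all treatments.

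IDI1, the isopentenyl diphosphate isomerase gene, stood at 4859 in U266, 4755 in MM.1s, 8045 in KMS11 and 3296 in 8226/S in control 2. At 6 h of ATO it was at 1356, 1276, 4429.7 and 2071, at 24 h at 1248, 1538, 2373 and 2392 and at 48 h at 1700.2, 2025, 3079 and 3354. It was lower in every line at 6 and 24 h, and at 48 h 8226/S was back at its control. The changes were -1.30 ± 0.21, -1.44 ± 0.21 and -1.02 ± 0.21 (adjusted p = 0.000464, 0.000221 and 0.00288). The probe set used, 208881_x_at, and 204615_x_at fell alike (-1.44 and -1.61 at 24 h), but the dimmer 233014_at and 242065_x_at of IDI1 stood at 0.669 and 0.153. ACAT2, an acetyl-CoA acetyltransferase gene, stood at 4162 in U266, 1986 in MM.1s, 2887 in KMS11 and 3605 in 8226/S in control 2 and at 1180.0, 394, 1144 and 3357 after 24 h of ATO. It was most reduced in MM.1s, and in 8226/S the change was -0.10. The change was -0.66 ± 0.24 at 6 h (adjusted p = 0.111, not called), -1.37 ± 0.24 at 24 h and -1.26 ± 0.24 at 48 h.

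Among the other mevalonate genes FDPS, the farnesyl diphosphate synthase gene, fell 2.38-fold at 24 h (-1.25 ± 0.19, adjusted p = 0.000307) and at 48 h (-1.08 ± 0.19). At 6 h it stood at -0.57 ± 0.19 (adjusted p = 0.0774). MVD, the decarboxylase gene, fell at 24 h (-1.30 ± 0.33, adjusted p = 0.0205), but its signal was as low as 11.2 in MM.1s at 24 h, and against the 8 controls it stood at -0.25 (adjusted p = 0.762). PMVK, a kinase gene, fell at 6 and 48 h, with changes of -0.41 ± 0.12 and -0.45 ± 0.12. MVK, the mevalonate kinase gene, was called at no time on its brightest probe set (-0.20 ± 0.12 at 24 h). The dimmer probe sets 204056_s_at and 215649_s_at of MVK stood at -1.12 and -1.33 at 24 h. The calls of HMGCS1 at 6 and 48 h, of PMVK at 6 and 48 h and of MVD at 24 h were lost when 1 or more of the lines was left out.

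The squalene and sterol genes lead from squalene to cholesterol. All 9 measured fell at 24 h of ATO, after 3 at 6 h, and 6 were still called lower at 48 h. Their median change was -0.546, -1.24 and -1.24 at the 3 times. MSMO1, the sterol methyl oxidase gene, stood at 8418 in U266, 9922 in MM.1s, 6626 in KMS11 and 4111 in 8226/S in control 2. At 6 h of ATO its signals were 3326, 2229, 1614 and 2026, at 24 h 2148, 2264, 1616 and 2528 and at 48 h 3068, 2529, 2094 and 4007. No ATO array reached any control 2 array, and 8226/S, with the lowest control, came closest at 48 h. MSMO1 fell 3.09-fold at 6 h (-1.63 ± 0.22, adjusted p = 4.6e-05), 3.24-fold at 24 h (-1.70 ± 0.22, adjusted p = 3.88e-05) and 2.42-fold at 48 h (-1.27 ± 0.22, adjusted p = 0.000507). Its calls held without any 1 line and against the 8 controls, where the 24 h change was -1.64 (adjusted p = 1.18e-05).

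LSS encodes lanosterol synthase, which closes the sterol rings. Its signals were 4273 in U266, 10168 in MM.1s, 6878 in KMS11 and 5042 in 8226/S in control 2, 2496, 1879, 3398 and 3265 at 6 h of ATO and 1552, 1873, 1897 and 2648 at 24 h. The 6 and 24 h arrays all lay under the lowest control 2 array, and MM.1s, with the highest control, fell most. LSS changed by -1.21 ± 0.23, -1.66 ± 0.23 and -1.28 ± 0.23 (adjusted p = 0.00251, 0.000123 and 0.000917). With the 8 controls pooled the 24 h change was -1.11 (adjusted p = 0.0327), and the 6 and 48 h calls were lost (-0.66 and -0.73).

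SQLE, the squalene epoxidase gene, also fell at each time (-1.07 ± 0.20, -1.33 ± 0.20 and -1.24 ± 0.20). All 3 of its calls were lost against the 8 controls, where the 24 h change was -0.67 (adjusted p = 0.18). DHCR7, whose reductase makes cholesterol in the last step, was at -0.55 ± 0.25 at 6 h (adjusted p = 0.241) and changed by -1.56 ± 0.25 at 24 h and -1.54 ± 0.25 at 48 h. EBP, the sterol isomerase gene, and HSD17B7 fell at 24 h (-1.05 ± 0.21 and -0.60 ± 0.15) and at 48 h (-1.27 ± 0.21 and -0.65 ± 0.15). NSDHL, TM7SF2 and SC5D, which encode a dehydrogenase, a reductase and a desaturase of the late steps, were called at 24 h alone. The 24 h changes were -0.77 ± 0.22 for NSDHL, -1.24 ± 0.35 for TM7SF2 and -0.70 ± 0.19 for SC5D (adjusted p = 0.0461, 0.0373 and 0.0314). A dim probe set of EBP, 231320_at, stood at 0.0746 at 24 h and 0.184 at 48 h, where its other 2 probe sets not used were lower (-0.866 and -0.762 for 202735_at). The HSD17B7 call at 48 h was lost without U266, MM.1s or KMS11 (adjusted p = 0.0993, 0.0987 and 0.0672). The 24 h calls of TM7SF2, NSDHL, HSD17B7, EBP and SC5D were lost without 1 or more of the lines, and against the 8 controls those of SQLE, TM7SF2 and DHCR7 were (-0.70 for TM7SF2 and -0.96 for DHCR7).

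Among the genes that control SREBP, INSIG1 had the lowest mean change of the 31 at each ATO time. INSIG1 encodes the sterol-dependent anchor of SCAP and is itself switched on by SREBP. Its signals were 8208 in U266, 13421 in MM.1s, 13303 in KMS11 and 8245 in 8226/S in control 2. They were 1801, 1951, 5385 and 3565 at 6 h of ATO, 965, 1035, 4260.1 and 3432 at 24 h and 1518, 1257, 4585 and 6275 at 48 h. No ATO array reached the control 2 arrays, U266 and MM.1s fell furthest, and 8226/S stood closest to its control at 48 h. INSIG1 was lower 3.63-fold, 5.28-fold and 3.81-fold at the 3 times (-1.86 ± 0.29, -2.40 ± 0.29 and -1.93 ± 0.29, adjusted p = 0.000317, 2.19e-05 and 0.000158). The calls held without any 1 line, and against the 8 controls the changes were -1.46, -2 and -1.53, all called. The other probe sets of INSIG1, 201625_s_at and 201627_s_at, changed by -2.41 and -2.21 at 24 h.

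**Figure D3:**
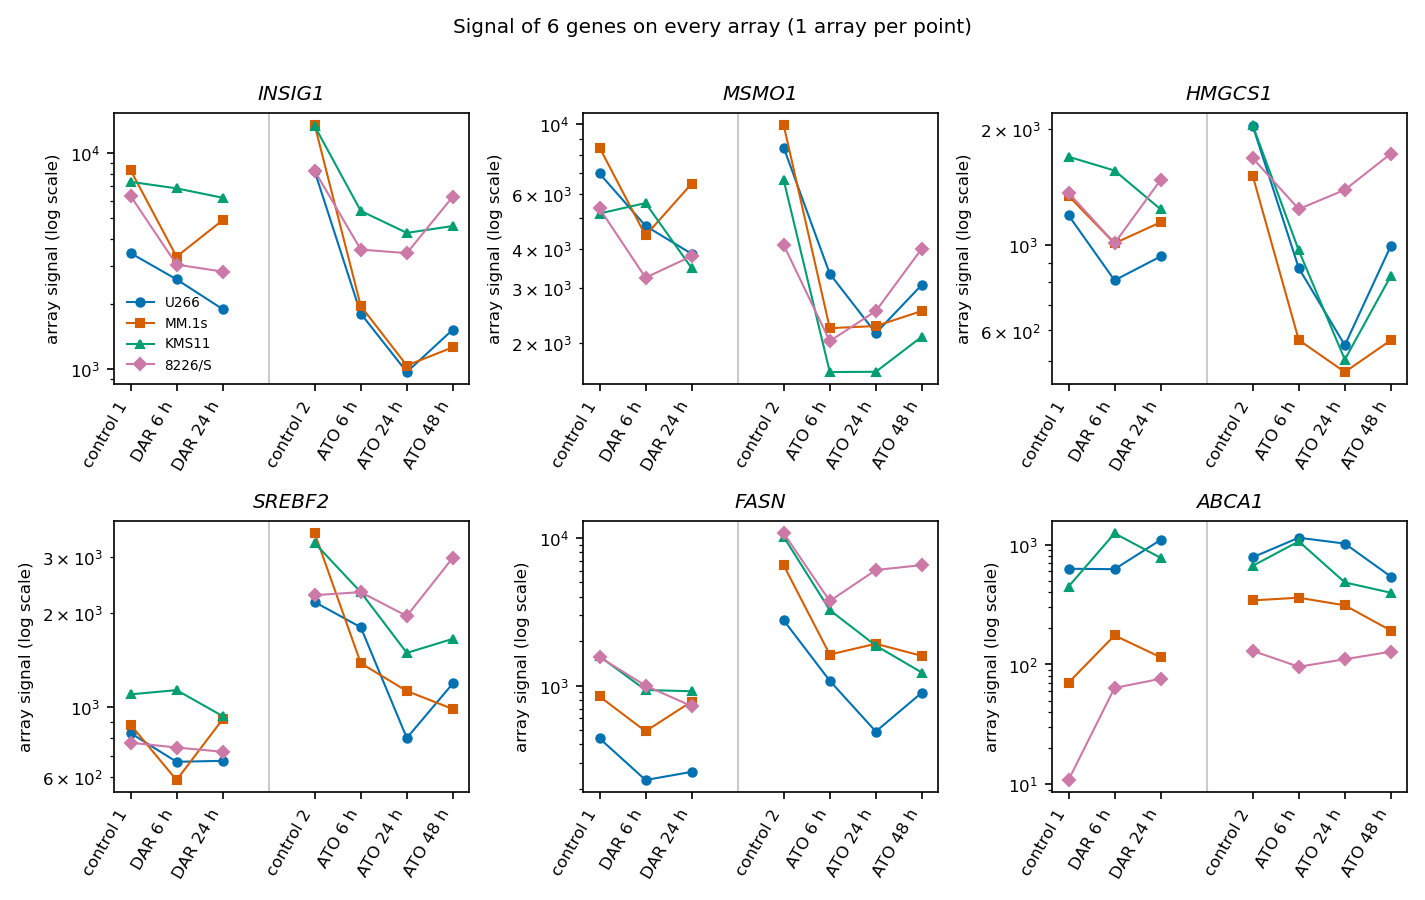
Array signal (log scale) of 6 genes on each of the 28 arrays, with control 1 and DAR on the left and control 2 and ATO on the right of each panel; colours and symbols mark the 4 lines and each point is 1 array. INSIG1 and MSMO1 lie below every control 2 array at all ATO times, FASN and SREBF2 start higher in control 2 than in control 1, and ABCA1 is spread over the lines.

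SREBF2, whose SREBP drives cholesterol genes and whose promoter carries the sterol response element printed above, stood at 2161 in U266, 3577 in MM.1s, 3330.4 in KMS11 and 2273 in 8226/S in control 2. At 24 h of ATO it was at 798, 1125, 1489 and 1951, below every control 2 array, and at 48 h at 1190.2, 986, 1650.3 and 2993, where 8226/S was above its control. SREBF2 changed by -1.10 ± 0.22 at 24 h and -0.82 ± 0.22 at 48 h (adjusted p = 0.00367 and 0.0147), with -0.53 ± 0.22 at 6 h (adjusted p = 0.171). Control 1, however, was at 827, 879.6, 1098 and 771, so the 24 h arrays were above control 1 in 3 of 4 lines. Against the 8 controls the change was -0.30 (adjusted p = 0.57) at 24 h and -0.015 at 48 h. The call at 24 h was lost without U266 or KMS11 and at 48 h without U266, MM.1s or KMS11.

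SREBF1, which encodes the SREBP of fatty acid genes, stood at 459.8 in U266, 1452 in MM.1s, 1618 in KMS11 and 2078 in 8226/S in control 2 and at 296, 266.02, 673 and 1074 after 24 h of ATO. The groups overlapped, and each line was below its own control. It changed by -1.27 ± 0.34 and -1.12 ± 0.34 at 24 and 48 h (adjusted p = 0.0284 and 0.0315). Without MM.1s the changes were -0.917 and -0.539 (adjusted p = 0.147 and 0.352), and without KMS11 the calls were lost too (adjusted p = 0.179 and 0.208). At 24 h the call was also lost without 8226/S (adjusted p = 0.0524). SREBF1 against the pooled controls stood at -0.34 and -0.19, neither called.

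STARD4, which encodes a cytosolic carrier of cholesterol, had signals of 1274 in U266, 2028 in MM.1s, 1165 in KMS11 and 1045 in 8226/S in control 2 and 475, 573, 383 and 675 at 24 h of ATO, with no overlap. It fell at the 3 times, with changes of -1.05 ± 0.22, -1.32 ± 0.22 and -1.14 ± 0.22 (adjusted p = 0.00474, 0.000682 and 0.00139). Its 6 h call was lost without MM.1s and against the 8 controls (-0.73). INSIG2, the other anchor gene, changed by -0.72 ± 0.16 at 24 h and -0.64 ± 0.16 at 48 h, calls that were lost without U266, MM.1s or KMS11. SCAP, the escort gene, was not called, at -0.31 ± 0.11, -0.16 ± 0.11 and -0.34 ± 0.11 (adjusted p = 0.0501 at 48 h). Of the 6 genes of this role 2, 5 and 5 fell at the 3 times.

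The fatty acid genes make palmitate from citrate and then lengthen and desaturate it. Of the 6 measured 4 fell at 6 h of ATO, 3 at 24 h and 4 at 48 h. FASN stood in control 2 at the signals given above and at 1079 in U266, 1624 in MM.1s, 3247 in KMS11 and 3739 in 8226/S after 6 h of ATO. At 24 h the signals were 489, 1921, 1865 and 6064 and at 48 h 897, 1589.8, 1226 and 6546. Each line was below its control 2 at each time, and the groups overlapped. FASN changed by -1.62 ± 0.27, -1.86 ± 0.27 and -1.84 ± 0.27 (adjusted p = 0.000482, 0.000149 and 0.000108). FASN at 24 h of ATO was above control 1 in 4 of 4 lines, and against the 8 controls it stood at -0.26, -0.49 and -0.47, with no call (adjusted p = 0.542 at 24 h). A second, dim probe set of FASN, 217006_x_at, stood at 0.417 at 24 h.

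SCD, the stearoyl-CoA desaturase gene, had signals of 6740.1 in U266, 14080.4 in MM.1s, 10115 in KMS11 and 9559 in 8226/S in control 2 and 2071, 1851, 2584 and 5309.8 at 24 h of ATO. The groups did not overlap, and MM.1s fell furthest, reaching 993 at 48 h. It changed by -1.16 ± 0.31, -1.85 ± 0.31 and -1.76 ± 0.31 (adjusted p = 0.0232, 0.000682 and 0.000618). In the fit with all 8 controls the changes were -0.55, -1.24 and -1.15, of which the last was called, and the 6 h call was lost without U266, MM.1s or KMS11. ACLY, which splits citrate into acetyl-CoA, changed by -0.60 ± 0.12 at 6 h and -0.43 ± 0.12 at 24 h, and stood at -0.36 ± 0.12 at 48 h (adjusted p = 0.054). ACACA, the acetyl-CoA carboxylase gene, fell at 6 h (-1.09 ± 0.27) and 48 h (-0.93 ± 0.27) and stood at -0.74 ± 0.27 at 24 h (adjusted p = 0.122). None of these 4 calls held against the 8 controls, and the ACLY call at 24 h was lost whichever line was left out.

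FADS2, a fatty acid desaturase gene, fell at 48 h (-1.52 ± 0.46, adjusted p = 0.0322), while at 24 h it stood at -1.44 ± 0.46 (adjusted p = 0.0706). The 48 h change ran from -3.67 in KMS11 to 0.32 in 8226/S, and against the 8 controls it was -0.16. ELOVL6, which encodes an elongase of saturated fatty acids, went the other way. It rose at 48 h in 4 of 4 lines by 0.71 ± 0.23 (adjusted p = 0.0422) and stood at 0.74 ± 0.23 at 24 h (adjusted p = 0.0591), with MM.1s highest (1.62 at 48 h). The 48 h call was lost without MM.1s (0.413, adjusted p = 0.237), KMS11 or 8226/S, with each array centred on its median, with the mean of all probe sets, with no filter, with no variance trend and with 7 groups in 1 fit, and held against the 8 controls (0.99). Of the other probe sets of ELOVL6, 210868_s_at stood at 0.64 and the dimmer 227491_at at -0.0615 at 48 h.

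Of the 3 LXR targets 1, MYLIP, was called under ATO. MYLIP, the ubiquitin ligase gene, had signals of 625 in U266, 1653 in MM.1s, 1253 in KMS11 and 3805 in 8226/S in control 2 and 336, 589, 679 and 1292 at 48 h of ATO. It was lower in every line at each time and 8226/S changed most, by -1.54 at 48 h. MYLIP changed by -0.79 ± 0.20, -0.97 ± 0.20 and -1.17 ± 0.20 (adjusted p = 0.0205, 0.00669 and 0.000618). With controls pooled the 48 h call held (-0.77), and those at 6 and 24 h did not (-0.39 and -0.57). The 6 h call was lost without MM.1s, KMS11 or 8226/S (-0.57, adjusted p = 0.213 without 8226/S) and the 24 h call without MM.1s or 8226/S (adjusted p = 0.08 and 0.0641). With the mean of its 6 probe sets the 6 h call was lost too. The dim 227707_at of MYLIP stood at 0.16, 0.367 and 0.136 at the 3 times, and the other 4 probe sets not used were lower at each.

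ABCG1, a sterol exporter gene, was higher in 4 of 4 lines at 6 h of ATO, by 0.95 ± 0.31, but was not called (adjusted p = 0.0703), and it stood at 0.27 ± 0.31 and -0.32 ± 0.31 later. ABCA1, the exporter that loads cholesterol onto apolipoproteins, had signals of 785 in U266, 343 in MM.1s, 666 in KMS11 and 130.0 in 8226/S in control 2 and 1020.2, 311, 484 and 111 at 24 h of ATO. The lines lay far apart, with 8226/S lowest, and the groups overlapped. Its changes were 0.22 ± 0.25, -0.096 ± 0.25 and -0.50 ± 0.25, none called.

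Over time, no gene of the 31 was called by limma between 6 and 24 h of ATO, where 0.317% of all genes were called lower and 0.143% higher. An unadjusted p under 0.05 (limma) was seen for 11 of the 31, 10 of them lower, a larger share than the 10.8% of all genes. From 24 to 48 h 0% of all genes were called, and 1 of the 31 had an unadjusted p under 0.05, where 6.37% of all genes had one. Of the 31, 19 had their lowest value at 24 h, 8 at 48 h and 4 at 6 h. The median difference was -0.321 from 6 to 24 h and 0.0891 from 24 to 48 h. DHCR7 had the smallest p from 6 to 24 h (-1.01 ± 0.25, adjusted p = 0.0692), then ELOVL6 (0.82 ± 0.23) and FDPS (-0.68 ± 0.19). Without 8226/S 2 of the 31 were called lower from 6 to 24 h.

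The lines' median changes under ATO differed in size, and the difference was called for no single gene. In the line medians of the 31 genes U266 stood at -0.513, -1.24 and -0.873 at 6, 24 and 48 h of ATO, MM.1s at -0.977, -1.5 and -1.49, and KMS11 at -0.581, -1.15 and -0.864. In 8226/S the medians were -0.373, -0.322 and -0.0372. At 24 h 19, 21 and 17 of the 31 were lower by over 1 log2 unit in U266, MM.1s and KMS11, against 3 in 8226/S. For 22 of the 31 the 24 h change was the highest, that is the least negative, in 8226/S. A test of line by ATO over the 16 control 2 and ATO arrays called none of the 31, where 17 of all genes (0.11%) were called. No line has a repeated treatment, so the 3 ATO times of a line served as its replicates beside 1 control 2 array. The p-values of this test measure the spread of the times within lines, not that of repeated cultures. At an unadjusted p under 0.05 there were 14 of the 31 and 8.67% of all genes (limma F test), and the lowest adjusted p was 0.133. FASN and MYLIP were lower in 8226/S too: FASN at 6 h changed by -1.51 in 8226/S and MYLIP at 24 h by -1.52.

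**Figure D4:**
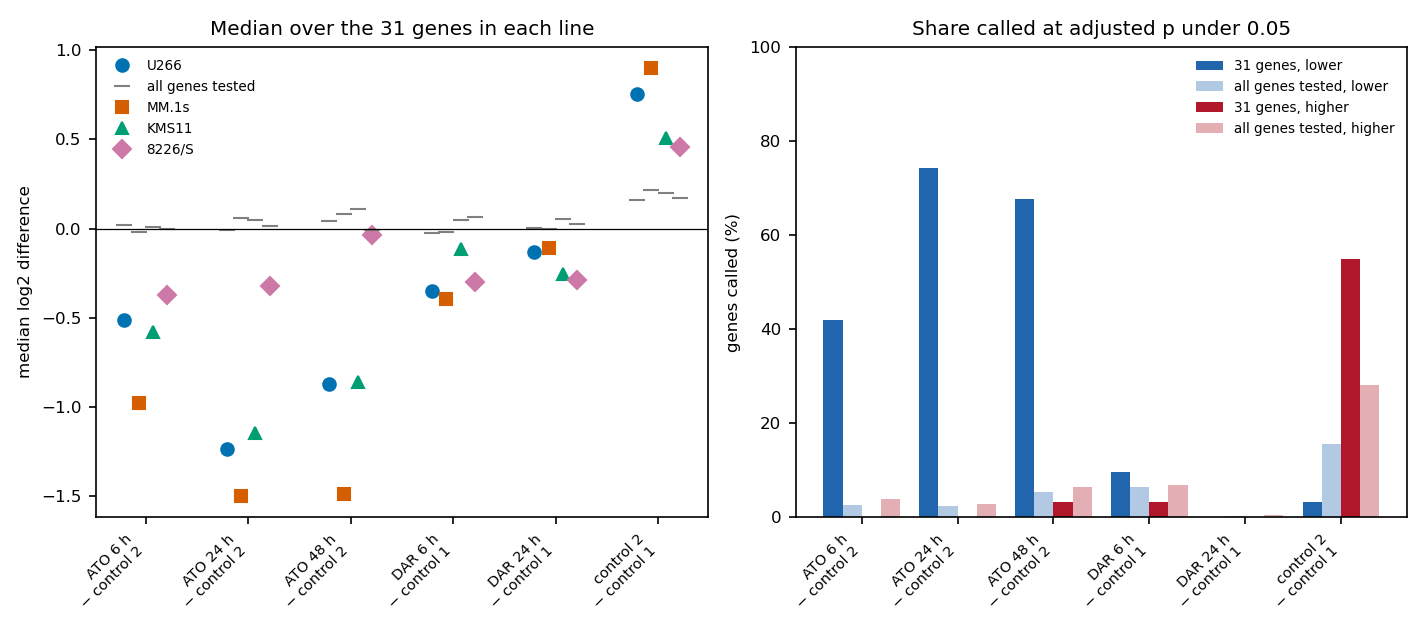
Left, median log2 difference over the 31 genes in each of 4 lines (symbols) and over all genes tested (grey dashes) in 6 comparisons; right, percent of the 31 genes and of all 15437 genes tested that were called lower (blue) or higher (red) at an adjusted p under 0.05. The ATO medians of U266, MM.1s and KMS11 lie between -0.513 and -1.5, those of 8226/S between -0.373 and -0.0372.

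After darinaparsin few of the 31 genes were called against control 1. At 6 h 3 of the 31 fell, NSDHL, IDI1 and ACLY, and 1, ABCA1, rose. Of all genes 6.34% were called lower and 6.85% higher, so the called share of the 31 was near the background. An unadjusted p under 0.05 was seen at 6 h for 12 of the 31, 10 of them lower, where 25.7% of all genes had one (limma). At 24 h none was called (0.13% of all genes lower, 0.492% higher), and 8 of the 31 had an unadjusted p under 0.05, 7 of them lower, where 14.8% of all genes had one (limma). From 6 to 24 h of DAR none of the 31 was called (3.61% of all genes lower, 4.06% higher), with 4 at an unadjusted p under 0.05, where 21.7% of all genes were. The median change of the 31 was -0.281 at 6 h and -0.197 at 24 h, where that of all genes was 0.0202 and 0.0199. Lower values in 4 of 4 lines were seen for 15 genes at 6 h and 10 at 24 h, where 14.1% and 10.6% of all genes had them. NSDHL was at 715 in U266, 1159 in MM.1s, 1528 in KMS11 and 1783 in 8226/S in control 1 and at 285, 421, 1162 and 1041 after 6 h of DAR, lower in each line. It changed by -0.95 ± 0.22 (adjusted p = 0.00586), a call lost without U266. IDI1 went from 4897, 4884, 8830.0 and 6046 to 1989, 2552, 7515 and 3291 in the same lines, a change of -0.83 ± 0.21 (adjusted p = 0.0107), and ACLY changed by -0.46 ± 0.12. The IDI1 call was lost without U266 or MM.1s and the ACLY call without MM.1s or 8226/S, at adjusted p of 0.052 to 0.0932.

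INSIG1 under DAR stood at 3435 in U266, 8329.8 in MM.1s, 7346 in KMS11 and 6325 in 8226/S in control 1, at 2595, 3307, 6851 and 3037 at 6 h and at 1889, 4874, 6198 and 2818 at 24 h. It was lower than control 1 in every line at both times, and the groups overlapped. The changes of -0.72 ± 0.29 and -0.76 ± 0.29 were not called (adjusted p = 0.112 and 0.226). LSS (-0.70 ± 0.23, adjusted p = 0.0509), FASN (-0.74 ± 0.27, adjusted p = 0.0688) and MSMO1 (-0.53 ± 0.22) were not called at 6 h either. ABCA1 had signals of 629 in U266, 70.5 in MM.1s, 446 in KMS11 and 10.9 in 8226/S in control 1 and 624, 175, 1242 and 63.8 at 6 h of DAR, higher in all lines but U266. It rose 1.89-fold (0.91 ± 0.25, adjusted p = 0.0163) and was higher in 4 of 4 lines at 24 h (0.87 ± 0.25, adjusted p = 0.108, not called). Its level in 8226/S is dim, the call was lost without MM.1s, KMS11 or 8226/S (0.875, 0.747 and 0.814, adjusted p = 0.101, 0.148 and 0.0546), and against the 8 controls it stood at 0.32. Against the 8 controls 13 of the 31 were called lower and 1 higher at 6 h of DAR, where 7.07% of all genes were called lower and 7.22% higher, with a median of -0.661 against -0.0998 for all genes. At 24 h 3 were called lower, where 1.59% of all genes were, with a median of -0.511 against -0.079. That fit sets the DAR arrays against control 2 as well, where 17 of the 31 were called higher than in control 1. The difference between the controls therefore enters these counts and medians, and they do not measure DAR alone.

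ATO and DAR were given at unequal doses except in 8226/S, where both were at 2 µM, and they are set against different controls. In 8226/S the median change of the 31 genes was -0.373 for ATO and -0.3 for DAR at 6 h, and -0.322 and -0.289 at 24 h. With 1 array each there is no test of this difference. INSIG1 in 8226/S went from 8245 to 3565 and 3432 under ATO, and from 6325 to 3037 and 2818 under DAR. In U266 the 24 h median was -1.24 at 2 µM ATO and -0.132 at 4 µM DAR. MM.1s had -1.5 at 2 µM ATO and -0.111 at 3 µM DAR, and KMS11 -1.15 and -0.258.

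Read from control 1, the levels after 24 h of ATO were lower in 4 of 4 lines for 14 of the 31 genes, namely INSIG1, INSIG2, STARD4 and 11 genes of the mevalonate, squalene and sterol steps, where 18.9% of all genes were. The mean was below control 1 for 19 and above it for 12, with a median of -0.357 against 0.266 for all genes. IDI1, INSIG1, MSMO1 and FDPS were lowest (-1.7, -1.61, -1.58 and -1.55). ELOVL6, FADS2, MVK, ABCA1 and FASN were highest (1.3, 1.28, 1.27, 1.09 and 0.87). These differences cross the 2 sets of arrays and were not tested.

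Untreated, the 4 lines expressed the genes at different levels. limma called 25 of the 31 as differing between lines, where 51.7% of all genes did (F test). This test used the 8 control arrays of the 4 lines. The replicates of a line were its untreated arrays from the different sets of controls, and those sets differed from each other as described above. The p-values of this test therefore measure how such arrays vary within lines, not the spread of the 4 lines or of repeated cultures. FADS2 had a mean control signal of 5592 in 8226/S, 1145 in U266, 1025 in KMS11 and 90.4 in MM.1s (adjusted p = 7.63e-06). SQLE had a mean of 513 in MM.1s, and elsewhere of 4508 to 6855 (adjusted p = 3.93e-05), and ABCA1 one of 70.4 in 8226/S against 707 in U266 (adjusted p = 0.000502). SREBF1 was lowest in U266, at 259 against 913 to 1426 (adjusted p = 0.000106). Among the 25, 13 were highest in 8226/S and 11 lowest in U266. HMGCS1, MVK, MVD, LSS, SC5D and SREBF2 were not called. The count was 13 without a variance trend and 14 of 21 tested without probe sets whose name ends in _s_at or _x_at.

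**Figure D5:**
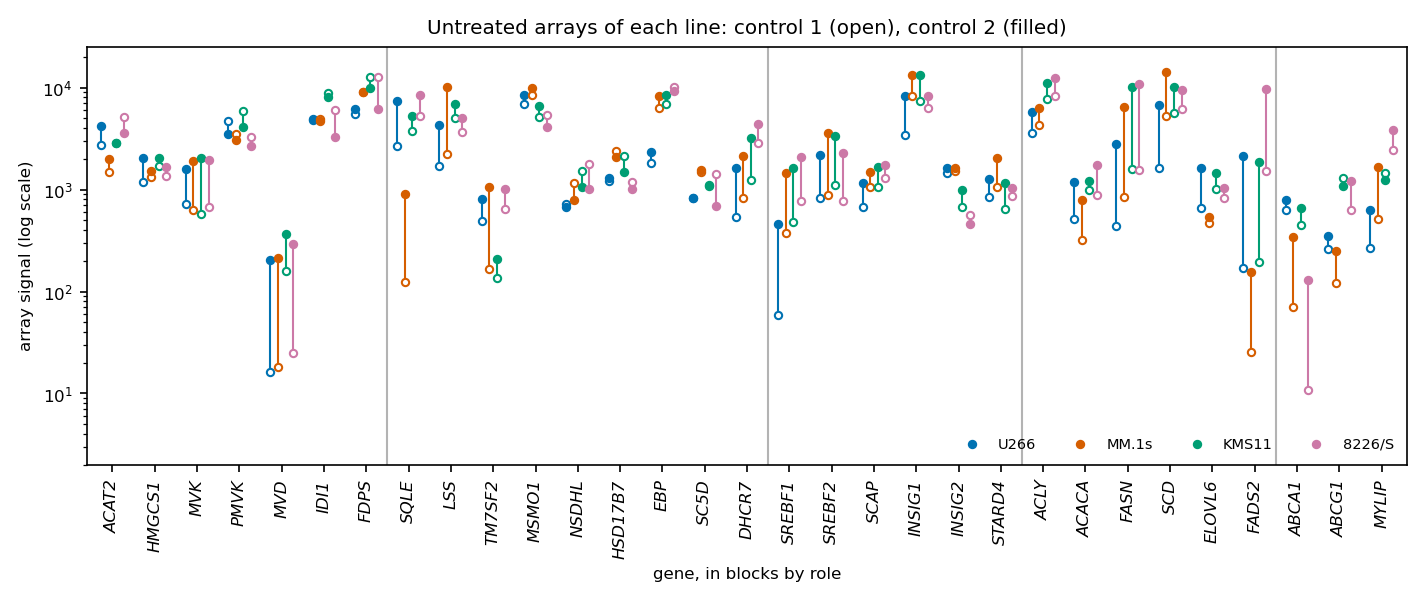
Array signal (log scale) of each of the 31 genes in the untreated arrays of the 4 lines (colours), with control 1 open and control 2 filled and a bar joining them; signals of different genes rest on different probe sets and are not comparable. FADS2, SQLE and ABCA1 spread most over the lines, and FASN, SREBF2 and MVK lie higher in control 2 in every line.

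Of 35 further genes listed for the pathway 29 were tested. Under ATO 2 fell and 1 rose at 6 h, 3 and 1 at 24 h and 5 and 4 at 48 h, and their median was -0.012, 0.0521 and 0.0521. Of all genes 2.64%, 2.27% and 5.38% were called lower and 3.78%, 2.73% and 6.35% higher. SLC25A1, the citrate carrier gene that supplies carbon for fatty acids, fell at the 3 times (-0.80 ± 0.22, -0.89 ± 0.22 and -0.99 ± 0.22). Control 2 exceeded control 1 by 1.73 ± 0.25, and its signals at 24 h of ATO, 1150.3 in U266, 1175 in MM.1s, 907 in KMS11 and 675 in 8226/S, were above control 1 (702, 605, 552 and 304) in 4 of 4 lines. ACSS2, which activates acetate, fell at 6 h (-0.75 ± 0.18). TECR, a reductase of fatty acid elongation, fell at 24 h (-0.71 ± 0.14), as did TMEM97, a sterol-responsive membrane protein gene (-0.67 ± 0.19), which reached -1.30 ± 0.19 at 48 h. FADS3, a desaturase-like gene, rose at the 3 times, by 1.00 ± 0.21, 0.87 ± 0.21 and 0.95 ± 0.21 (adjusted p = 0.00523, 0.0185 and 0.0049). At 48 h NPC1 and NPC2, which move cholesterol out of lysosomes, rose as well (0.87 ± 0.20 and 0.44 ± 0.12).

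Under DAR at 6 h 4 further genes rose and 2 fell, where 6.85% of all genes rose and 6.34% fell, and at 24 h none was called. LPIN1, which encodes a phosphatidate phosphatase, rose by 0.70 ± 0.099 (adjusted p = 4.83e-05), and NR1H3, an LXR gene, by 0.90 ± 0.24 (adjusted p = 0.0122). NPC1 rose too (0.68 ± 0.20). ERLIN1, of a complex that binds cholesterol in the endoplasmic reticulum, and DHDDS, of dolichol synthesis, fell (-0.59 ± 0.15 and -0.46 ± 0.15). MBTPS1 and MBTPS2, the genes of the proteases that cut SREBP, were called in no treatment, at -0.26 ± 0.15 and 0.13 ± 0.12 at 24 h of ATO.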

How the data were processed

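The 28 arrays hold 1 signal intensity per probe set, which the submitters' processing notes attribute to GCOS (version not given in the sources used here). The deposited intensities are linear and share 1 trimmed mean over the arrays, so they were scaled before deposit, and they were not normalized again. An offset of 29 was added before taking log2, and log2 differences understate the change of dim genes. A gene was read from its brightest probe set among those with a single symbol in the platform annotation (41097 of 54675; 1801 had several and 11777 none), and kept if above its array's 50th percentile on 4 or more arrays, which left 15437 genes. All were fitted with limma 3.58.1 in R 4.3.3 (lmFit and eBayes with a variance trend), with a baseline for each line within each set of controls, so that a line pairs its arrays. The control comparison had 7 groups and a line term, and line differences were F tests. Adjusted p are Benjamini-Hochberg values over all 15437 genes, called under 0.05. Depth does not apply to arrays, and the 4 lines per group limit the precision. The fit was also run on simulated data with independent noise on each array and the same change in every line. That setting leaves out lines that respond differently, so it does not check the calls where lines differ. The genes named were the 31 and the further pathway genes, with up to 3 called in each direction. The members and lists were chosen with earlier results of these data known. The alternatives tried were other offsets, scalings, filters, probe set rules, control sets and variance models, and leaving out each line. Promoter windows came from RefSeq.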

Additional observations from a re-analysis of the deposited data

Results flagged for a closer look

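In 7 of 89 results over 4 lines, 1 line lay far from the other 3 by Dixon's ratio, in which chance alone marks about 1 in 20. In 4 of the 7 the line was 8226/S. At 24 h of ATO 8226/S changed by -0.695 for MSMO1, where the other lines lay between -2.12 and -1.96, and by -0.611 for SQLE, against -1.63 to -1.5. At 48 h SQLE in 8226/S was at -0.168 (others -1.71 to -1.46) and INSIG2 at 0.0362 (others -0.873 to -0.856). ACLY at 6 h of DAR was at -0.906 in MM.1s, where the others lay between -0.356 and -0.278. Between the controls, control 2 minus control 1 was 1.08 for MVD in KMS11, below the 2.36 to 2.57 of the other lines, and 2.5 for TM7SF2 in MM.1s, above the 0.531 to 0.681 of the others. The control 1 signals of MVD in those other lines were 16.2 to 24.9, under the offset of 29, so their MVD differences depend on the offset. The other values are log2 differences, 1 array against 1 array.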

How the results depend on the processing

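Counts are genes of the 31 called. Lines pair the arrays as a block in the fit, and with no such block the calls numbered 1, 1 and 0 for ATO at 6, 24 and 48 h, 0 for DAR at 6 h and 4 between the controls. Leaving out each line gave 8 to 16 calls for ATO at 6 h, 13 to 20 at 24 h, 13 to 21 at 48 h, 1 to 3 for DAR at 6 h, 0 to 2 from 6 to 24 h of ATO and 0 to 1 from 6 to 24 h of DAR. Against the 8 controls, with no term for the set of arrays, ATO at 24 h had 15 calls (median -0.666), DAR at 6 h 14 (-0.661) and DAR at 24 h 3 (-0.511). The fit of 7 groups with a line term gave 15 for ATO at 24 h. Without probe sets ending in _s_at or _x_at 21 of the 31 could be tested, and the counts were 13 for ATO at 24 h, 2 for DAR at 6 h, 11 between the controls and 14 between untreated lines, and IDI1 turned to 0.0454, 0.669 and 0.387 at the ATO times and 0.16 at 6 h of DAR, on a dim probe set. The mean of all probe sets gave 2 for DAR at 6 h, and the fit without a variance trend 13 between untreated lines. Median centring moved the median of DAR at 24 h to -0.294 and between the controls to 0.117, and the share of calls that were higher over all genes from 54.1% to 34.9% for ATO at 48 h, 51.9% to 37.5% for DAR at 6 h and 64.5% to 22.6% between the controls. The cause of these changes was not tested. Of 80 called gene results, an offset of 100 kept 80, an offset of 1, quantile normalization and no filter 76 each, centring and no variance trend 68 each, the mean of all probe sets 67, and no line block 6. Leaving out 8226/S kept 68, U266 57, KMS11 53 and MM.1s 49. The 8 controls kept 36 of 62 and the 7 groups 46 of 62. Without probe sets ending in _s_at or _x_at 45 of 52 were kept, 3 lost and 4, those of IDI1, changed sign. The signal over background limits ABCA1 in 8226/S, at 10.9 in control 1.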
